A study of Mus musculus with 14 samples.

Results

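The angiomotin family and the nuclear effectors of the Hippo pathway were followed in mouse embryonic stem (ES) cells that differentiated as embryoid bodies, which are cell aggregates that form germ layers in culture. The set held 9 genes of 19938 measured: the angiomotins Amot, Amotl1 and Amotl2, the coactivators Yap1 and Wwtr1 (TAZ), and the DNA-binding partners Tead1, Tead2, Tead3 and Tead4. Members were the genes of these symbols whose probe set carried a single symbol in the platform annotation, and of the 2 probe sets of Tead1 the one with the higher mean over the 14 arrays was used. All 9 were found, and all had a mean signal above the 40th percentile of the genes, so none was lost to a filter on low signal.

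The induced cells carried the transcription factors ER71/Etv2, GATA2 and Scl (Tal1) under doxycycline control, and the control cells, labelled wild-type, received no drug. Doxycycline at 1 µg/ml was given from day 2 to day 3 of differentiation. The groups were induced 6 h and control day 2.25, with 1 array each, induced 12 h and control day 2.5, with 3 arrays each, and induced 24 h and control day 3, with 3 arrays each. Replicates 1 and 2 were of the ES cell line iEGS and replicate 3 of the line iB1, so the second line is 1 replicate. Control and induced arrays alike are assigned to these lines, although the controls are labelled wild-type. Whether the controls carried the inducible factors is therefore not settled here. No cells that received doxycycline without the inducible factors were analysed here, so the factors and the drug cannot be told apart. Values are RMA signals on the log2 scale, on which a difference of 1 is a doubling. Because each array measured a whole culture, a change in the share of cells that express a gene and a change in RNA per cell cannot be told apart. The check of the labels was clear: Etv2, Gata2 and Tal1 were higher in the induced array in 21 of 21 same-numbered pairs, by 1.77 to 4.59 log2 units. Induced 24 h replicate 3 stood somewhat apart, with the lowest mean correlation with the other arrays (0.966) and the lowest standard deviation over genes (1.91), and results that rest on it are given without it.

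The Hippo pathway is a kinase cascade in which STK3 and STK4 activate LATS1 and LATS2, which phosphorylate YAP1 and TAZ and keep them out of the nucleus. Unphosphorylated YAP1 and TAZ have no DNA-binding domain of their own and act on genes through TEAD transcription factors. Angiomotins are scaffold proteins of tight junctions and the actin cytoskeleton that bind YAP1 and TAZ directly and can hold them in the cytoplasm. Human angiomotin was found as a protein that binds the angiogenesis inhibitor angiostatin, and the family is known for roles in endothelial cell migration and in the early mouse embryo.

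Promoter windows from RefSeq (GRCm38.p6, 250 bases before to 50 bases after an annotated start) were on hand for 7 of the 9 genes; Tead1 and Tead4 had no entry. Those of Amot (chrX:145487590-145487889, minus strand) and Tead2 (chr7:45215542-45215841, plus strand) are shown because these 2 genes carry the calls of the induction comparisons described below. The Amot window surrounds a start 18327 bases inside the annotated gene span, and the Tead2 window one at the edge of its span. The capitals mark every GGAA (the core read by ETS factors such as ETV2) and every GATAA (read by GATA factors) on either strand, so that TTCC and TTATC are the same motifs on the other strand.
Amot: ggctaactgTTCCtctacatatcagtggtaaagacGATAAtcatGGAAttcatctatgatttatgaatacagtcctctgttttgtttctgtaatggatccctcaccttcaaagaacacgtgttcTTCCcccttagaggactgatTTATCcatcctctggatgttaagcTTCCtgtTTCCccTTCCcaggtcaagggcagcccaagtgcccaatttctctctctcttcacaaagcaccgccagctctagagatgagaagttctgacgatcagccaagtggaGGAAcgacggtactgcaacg
Tead2: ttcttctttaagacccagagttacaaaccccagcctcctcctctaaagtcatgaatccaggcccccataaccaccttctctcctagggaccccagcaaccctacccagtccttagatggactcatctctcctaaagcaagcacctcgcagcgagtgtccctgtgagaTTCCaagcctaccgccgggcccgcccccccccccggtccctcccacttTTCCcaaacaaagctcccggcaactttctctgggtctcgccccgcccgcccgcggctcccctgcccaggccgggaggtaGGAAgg
The Amot window held 7 GGAA and 2 GATAA matches, and the Tead2 window held 3 GGAA and 0 GATAA matches. CANNTG, the E-box read by factors such as TAL1, was found 3 times in the Amot window and 0 times in the Tead2 window. GGAATG, the core read by TEAD factors, which contains GGAA, was in neither. Of 32851 windows of this length, 96.0% held GGAA, 25.4% held GATAA, 72.3% held CANNTG and 14.7% held GGAATG on either strand. These are letter matches in 1 window per gene and say nothing of binding.

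**Figure D1:**
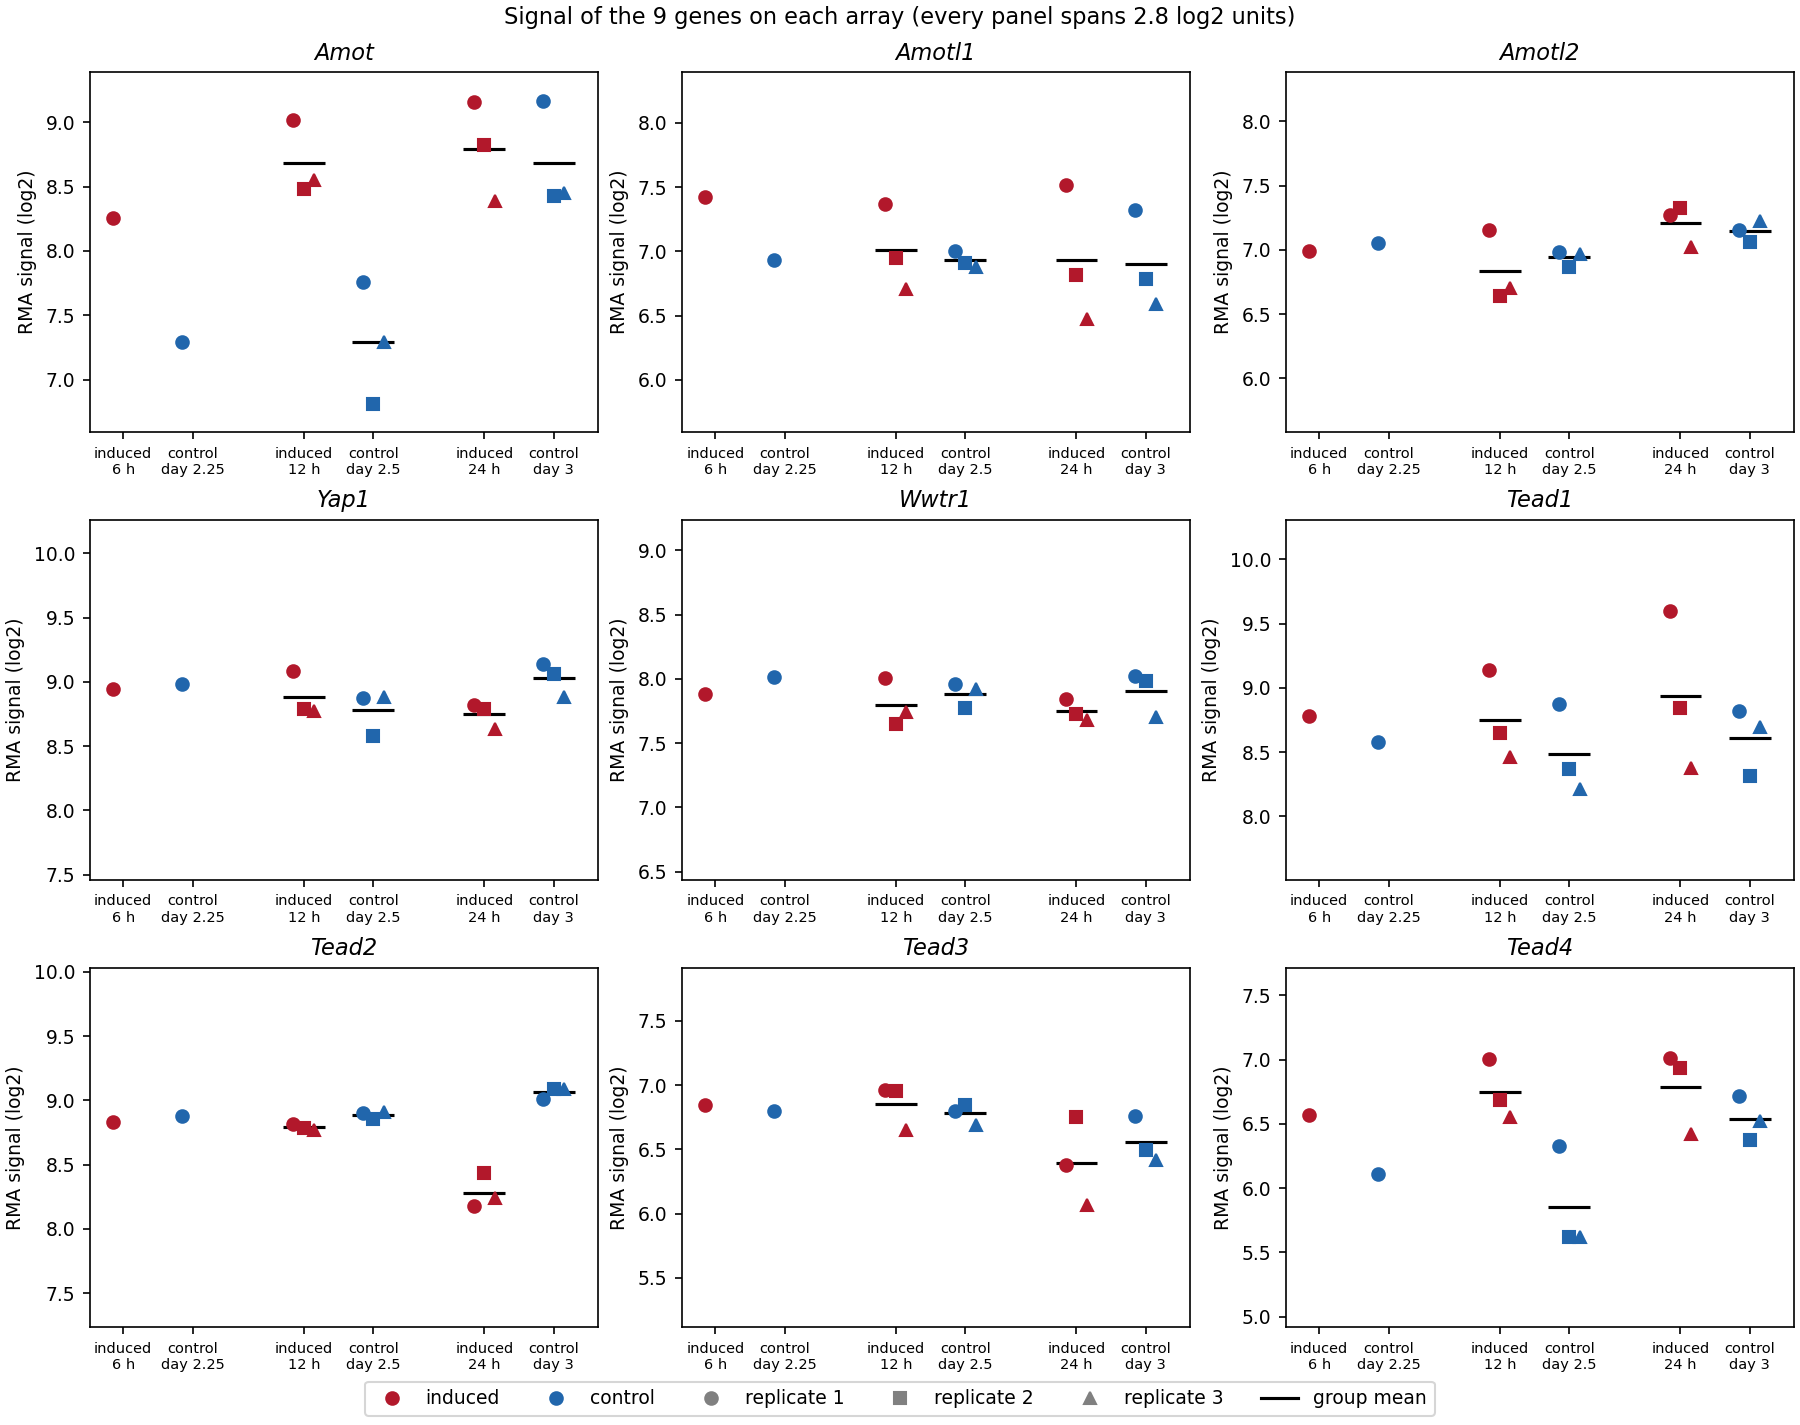
RMA signal (log2, y axis) of each of the 9 genes on each of the 14 arrays, by group (x axis). Red is induced, blue is control, the symbol shape is the replicate number and the bar is the group mean; each panel spans the same number of log2 units. The Amot signals of induced 12 h (8.48 to 9.02) lie above those of control day 2.5 (6.81 to 7.76), and the Tead2 signals of induced 24 h (8.18 to 8.43) lie below those of control day 3 (9.01 to 9.09).

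Whether induction changed these genes was asked at each time by comparing induced cells with controls of the same day. Amot was higher after 12 h of induction and Tead2 was lower after 24 h. The other 7 genes did not pass the test at either time. At 12 h, 1 of the 9 genes was called higher and 0 lower in the limma fit, where 0.813% of all 19938 genes were called higher and 1.39% were called in either direction. At 24 h, 0 were called higher and 1 lower, where 3.43% of all genes were called lower and 5.46% in either direction. The induced and control arrays did not overlap for 3 of the 9 genes at 12 h (Amot, Tead2 and Tead4), against 14.5% of all genes, and for 2 of the 9 at 24 h (Yap1 and Tead2), against 18.5% of all genes. The median difference of the 9 genes was 0.08 at 12 h and 0.03 at 24 h, and that of all genes was -0.01 and 0.00.

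Amot, which encodes angiomotin, the founding member of the family, was 2.63-fold higher after 12 h of induction. Its signals were 9.02, 8.48 and 8.55 in induced 12 h replicates 1, 2 and 3, against 7.76, 6.81 and 7.29 in control day 2.5. Every induced array lay above every control array. The group means were 8.69 ± 0.294 in induced cells and 7.29 ± 0.474 in controls (SD, n = 3 each), a log2 difference of 1.40 ± 0.271 (SE; 95% interval 0.82 to 1.98; limma adjusted p = 0.0152 over all genes). The same-numbered pairs differed by 1.26, 1.67 and 1.26, so the line iB1 (the third pair) and the line iEGS gave like differences. The call rested on few arrays: it was lost without replicate 2 in all groups (adjusted p = 0.382) or replicate 3 in all groups (0.194), and without single arrays, namely induced 12 h replicate 1 (0.0953), control day 2.5 replicate 2 (0.0793) or control day 2.5 replicate 3 (0.0698). Over these 15 ways of leaving out arrays the difference lay between 1.16 and 1.63.

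In the single pair of arrays at 6 h Amot was also higher in the induced array, with 8.26 in the induced and 7.29 in the control embryoid bodies. This difference of 0.97 log2 units (1.96-fold) has no replicate check. For scale, the control day 2.5 arrays alone ranged from 6.81 to 7.76. It fell just short of the 2-fold mark, which 44 genes passed upward (0.221% of all genes) and which 71 genes (0.356%) and 0 of the 9 members passed in either direction. Counting Amot itself, 50 of the 19938 genes (0.251%) were at least as far above their control at 6 h.

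At 24 h the Amot groups overlapped. Its signals were 9.16, 8.82 and 8.39 in induced 24 h, against 9.17, 8.43 and 8.45 in control day 3. The difference was 0.11 ± 0.271 (95% interval -0.47 to 0.69; adjusted p = 0.885), and 1 of the 3 pairs was higher in the induced array. The 24 h effect was smaller than the 12 h effect by 1.29 ± 0.383 log2 units. With the replicate number as a block this change was called (adjusted p = 0.00892), and without the block it was not (adjusted p = 0.314). The block also joins arrays of a number across days, and that pairing was not checked. Within day 3, induced and control arrays of the same number correlated at 0.157 for replicate 2 and 0.261 for replicate 3. Both values lay below the highest correlation with another number (0.375). The call of a changed effect therefore depends on a pairing that is not established here. No other member's effect was called as changed between the times in either fit, where 0.818% of all genes were called with the block and 0.426% without it.

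The control level was higher by day 3. Amot was 2.63-fold higher in control day 3 than in control day 2.5 (1.40 ± 0.271, adjusted p = 0.0259), and all 3 day 3 arrays lay above all 3 day 2.5 arrays. It was the 1 member of the 9 called between the control days, where 0.562% of all genes were called higher. The arrays of the control days did not overlap for 5 of the 9 genes (Amot, Amotl2, Yap1, Tead2 and Tead4, each higher at day 3), against 13.6% of all genes in either direction. In the induced cells over the same 12 h the difference was 0.11 ± 0.271 (adjusted p = 0.922). Set in order, Amot was lowest in control day 2.5 (7.29), and the 3 other replicated groups had means of 8.69 in induced 12 h, 8.79 in induced 24 h and 8.68 in control day 3, which did not differ beyond their spread. The difference of induced 12 h from control day 3 was 0.00, with an interval from -0.58 to 0.58, and 0 of the 9 genes were called there, where 3.12% of all genes were called. The call between the control days was lost with the arrays centred on their median (adjusted p = 0.0596), without replicate 2 (0.633) or 3 (0.286) in all groups, and without any one of control day 3 replicates 1 (0.122), 2 (0.0523) and 3 (0.0677), control day 2.5 replicates 2 (0.150) and 3 (0.111), or induced 24 h replicate 2 (0.0509).

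The paralogs of Amot did not pass the test. Amotl1, a junction protein that shares the YAP1-binding motifs of Amot, had signals of 7.37, 6.95 and 6.71 in induced 12 h, against 7.00, 6.91 and 6.88 in control day 2.5. At 24 h they were 7.51, 6.81 and 6.47 in induced cells, against 7.32, 6.79 and 6.59 in control day 3. The groups overlapped at both times, with differences of 0.08 ± 0.253 (interval -0.46 to 0.62) and 0.03 ± 0.253 (interval -0.51 to 0.58). The 6 h pair had 7.42 in the induced and 6.93 in the control array, a difference of 0.49 on 1 array each. Amotl2, which is itself a known target gene of YAP1, had 7.16, 6.64 and 6.71 in induced 12 h, against 6.99, 6.87 and 6.97 in control day 2.5, and 7.27, 7.33 and 7.02 in induced 24 h, against 7.15, 7.06 and 7.22 in control day 3. Its groups overlapped as well, with differences of -0.11 ± 0.154 at 12 h (interval -0.44 to 0.22) and 0.06 ± 0.154 at 24 h (interval -0.27 to 0.39). In the 6 h pair Amotl2 had 6.99 in the induced and 7.05 in the control array.

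Neither coactivator was called at 12 h or at 24 h. Yap1 had 9.08, 8.79 and 8.78 in induced 12 h, against 8.87, 8.58 and 8.88 in control day 2.5, a difference of 0.10 ± 0.144 (interval -0.20 to 0.41). At 24 h it had 8.82, 8.79 and 8.63 in induced cells, against 9.14, 9.06 and 8.88 in control day 3. All induced arrays lay below all control arrays at 24 h, yet the difference of -0.28 ± 0.144 (interval -0.59 to 0.03) did not pass the test (adjusted p = 0.364). Wwtr1, which encodes TAZ, the close relative of YAP1, had 8.00, 7.65 and 7.74 in induced 12 h, against 7.96, 7.77 and 7.92 in control day 2.5, and 7.85, 7.72 and 7.68 in induced 24 h, against 8.02, 7.99 and 7.70 in control day 3. Its groups overlapped at both times, with differences of -0.08 ± 0.143 and -0.15 ± 0.143 and intervals from -0.39 to 0.22 and from -0.46 to 0.15. At 6 h the single arrays had 8.95 and 8.98 for Yap1 and 7.89 and 8.02 for Wwtr1, induced and control in that order. An RNA level does not show where YAP1 and TAZ protein lay in the cell.

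Tead2, a TEAD factor present from the earliest stages of the mouse embryo, was 1.72-fold lower after 24 h of induction. Its signals were 8.18, 8.43 and 8.24 in induced 24 h, against 9.01, 9.09 and 9.09 in control day 3. The groups were far apart relative to their spread, with means of 8.28 ± 0.134 in induced cells and 9.06 ± 0.0478 in controls (SD, n = 3 each). The difference was -0.78 ± 0.121 (interval -1.04 to -0.52; limma adjusted p = 0.000885), and the 3 pairs differed by -0.83, -0.66 and -0.85. The call held in 14 of 15 ways of leaving out arrays and was lost without replicate 3 in all groups (adjusted p = 0.0615), where the difference was -0.75. Without the single array induced 24 h replicate 3, which stood apart, the difference was -0.76 and the call held (adjusted p = 0.00263).

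At 12 h Tead2 had 8.82, 8.79 and 8.77 in induced cells, against 8.90, 8.85 and 8.91 in control day 2.5. The arrays did not overlap, but the difference of -0.09 ± 0.121 was small and not called (adjusted p = 0.999). The 6 h pair had 8.84 in the induced and 8.88 in the control array. The change of the effect from 12 h to 24 h, -0.69 ± 0.171, did not pass the test (adjusted p = 0.155, and 0.107 with the replicate block). In order, Tead2 was highest in control day 3 (9.06), then control day 2.5 (8.89), induced 12 h (8.79) and induced 24 h (8.28). The 3 higher groups were not called apart from each other. Induced 24 h was called below control day 2.5 (-0.60 ± 0.121, adjusted p = 0.00595), a comparison in which Amot and Tead4 were called higher and 6.33% of all genes were called. It was also below induced 12 h (-0.51 ± 0.121, adjusted p = 0.0487), the 1 member of 9 called there, where 1.25% of all genes were called lower, but that call held in 6 of 24 alternatives only.

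Tead4, which is required for trophectoderm formation in the mouse embryo, had a pattern like that of Amot without reaching its size. Its signals were 7.00, 6.69 and 6.55 in induced 12 h, against 6.33, 5.62 and 5.62 in control day 2.5. Every induced array lay above every control array, and the difference was 0.89 ± 0.215 (interval 0.43 to 1.35, 1.86-fold). It just missed the threshold (limma adjusted p = 0.0623) and was called in 9 of 24 alternatives, among them the replicate block (adjusted p = 0.00329, where 2.21% of all genes were called) and the line as a covariate (0.0303), over which the adjusted p ran from 0.000184 to 0.901. At 24 h the groups overlapped, with 7.01, 6.93 and 6.42 in induced cells, against 6.72, 6.38 and 6.52 in control day 3 (0.25 ± 0.215, adjusted p = 0.622). The overlap came from induced 24 h replicate 3, which stood apart, and the other induced arrays lay above every control array. Without that array the difference was 0.44 and was not called (limma adjusted p = 0.420). The control day 3 mean was above that of control day 2.5 by 0.68 ± 0.215, which was called with the replicate block (adjusted p = 0.0306, where 1.73% of all genes were called) and not without it (0.291). At 6 h the induced array had 6.57 and the control array 6.11.

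Tead1 and Tead3 did not pass the test. Tead1 had 9.14, 8.65 and 8.46 in induced 12 h, against 8.88, 8.37 and 8.22 in control day 2.5. Each induced array was above its own pair by 0.26, 0.28 and 0.25, but replicates of a group differed by more than that, and the groups overlapped. The difference was 0.26 ± 0.279 at 12 h (interval -0.34 to 0.86; adjusted p = 0.999, and 0.774 with the replicate block). At 24 h Tead1 had 9.60, 8.84 and 8.37 in induced cells, against 8.82, 8.32 and 8.69 in control day 3, and the pairs did not share a direction (0.78, 0.53 and -0.32). The difference was 0.33 ± 0.279 (adjusted p = 0.620), and the second probe set of Tead1 gave 0.33 at 12 h and 0.35 at 24 h. The negative pair held induced 24 h replicate 3, which stood apart. Without that array the 24 h difference of Tead1 was 0.61 and was not called (limma adjusted p = 0.327). Tead3, whose human ortholog is known from placenta, had 6.96, 6.95 and 6.65 in induced 12 h, against 6.80, 6.85 and 6.69 in control day 2.5, and 6.38, 6.75 and 6.06 in induced 24 h, against 6.76, 6.49 and 6.42 in control day 3. Its groups overlapped, with differences of 0.08 ± 0.175 and -0.16 ± 0.175. The 6 h pairs had 8.78 and 8.58 for Tead1 and 6.84 and 6.79 for Tead3, induced and control in that order.

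**Figure D2:**
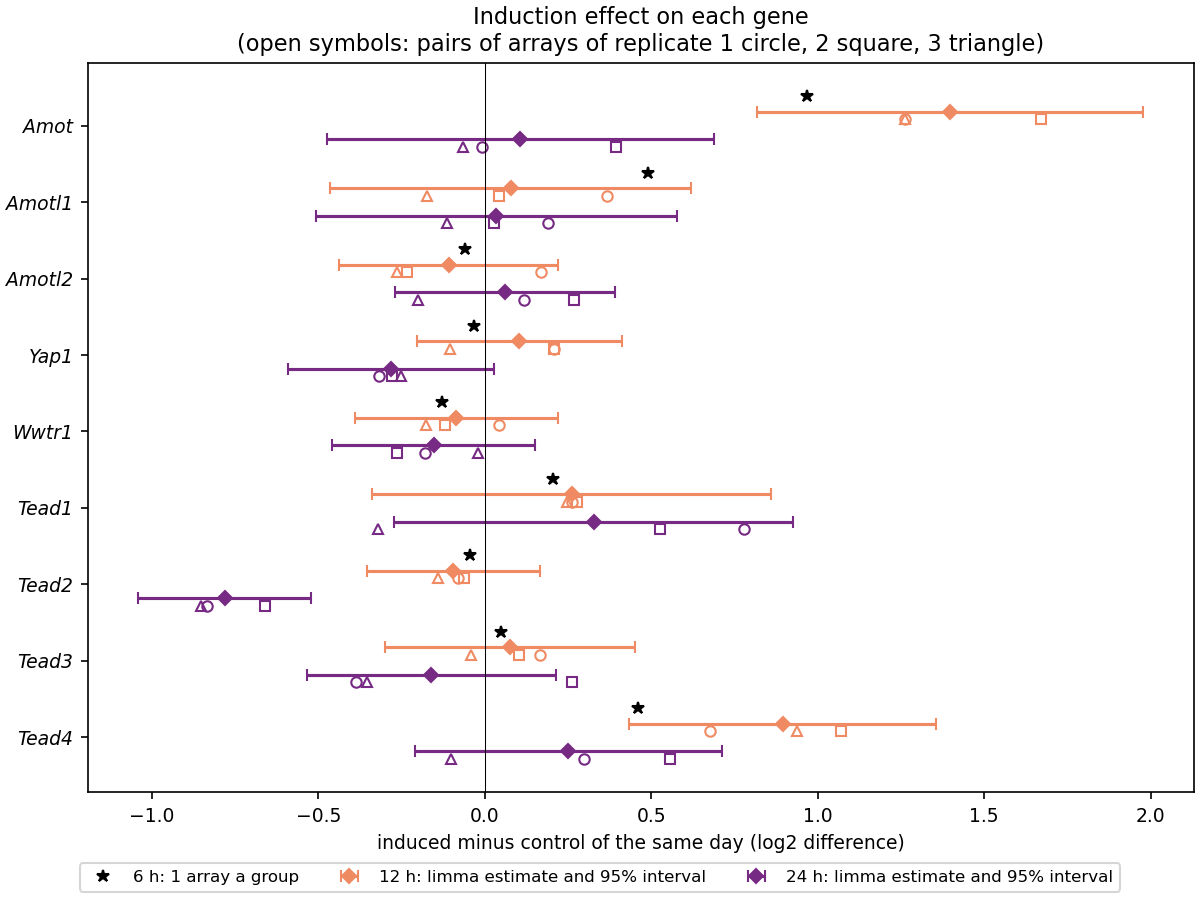
Log2 difference of induced minus control cells of the same day (x axis) for each of the 9 genes (y axis). Diamonds with bars are limma estimates with 95% intervals at 12 h and 24 h (3 arrays a group), open symbols are the same-numbered pairs of arrays, and stars are the single pair at 6 h; the intervals of Amot at 12 h (0.82 to 1.98) and of Tead2 at 24 h (-1.04 to -0.52) lie away from 0, as does that of Tead4 at 12 h (0.43 to 1.35), which was not called after adjustment.

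**Figure D3:**
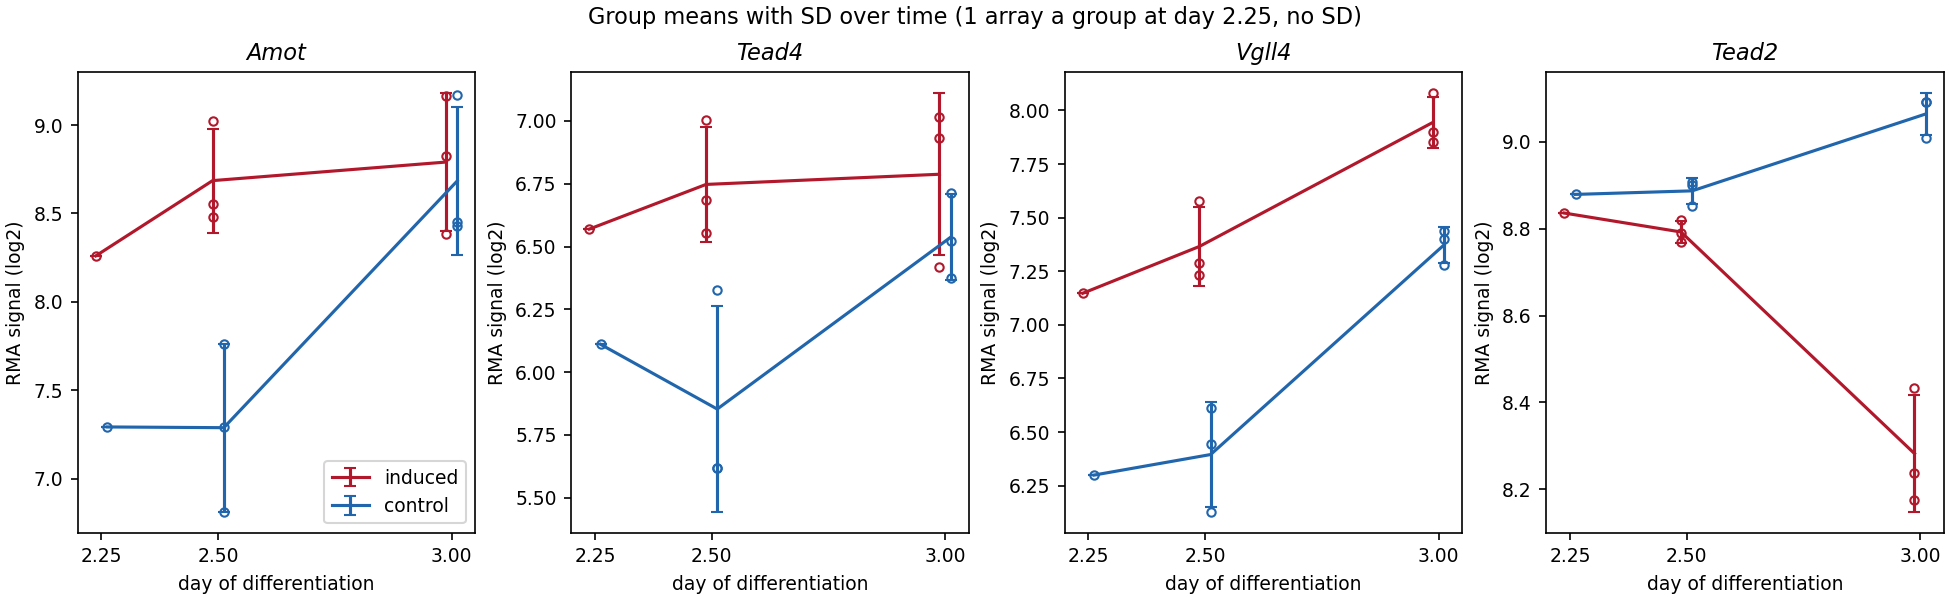
RMA signal (log2, y axis) of Amot, Tead4, Vgll4 and Tead2 by day of differentiation (x axis) in induced cells (red) and controls (blue). Lines join group means, bars are SDs over 3 arrays, open circles are arrays, and day 2.25 has 1 array a group. The induced Amot and Tead4 signals lie above the controls at day 2.5, where Amot was called and Tead4 was not, and in the 1 pair at day 2.25. Both genes overlap with the controls at day 3, Tead4 through induced 24 h replicate 3 only. The Tead2 means are 8.79 and 8.89 at day 2.5 and 8.28 and 9.06 at day 3, induced and control in that order.

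The replicates differed in a like way for several members. Replicate 1 had the highest signal in 4 of 4 replicated groups for Amot, Amotl1, Wwtr1, Tead1 and Tead4, which held for 13.4% of all genes. Replicate 3, the line iB1, had the lowest signal in 4 of 4 groups for Amotl1 and Tead3, which held for 1.96% of all genes. None of the 9 genes was called between the lines (2, Amotl1 and Tead3, at an unadjusted p under 0.05), and neither was any of the 19938 genes (0 at an adjusted p under 0.05 in limma, 1528 at an unadjusted p under 0.05). Amotl1 averaged 6.66 in iB1 and 7.08 in iEGS, and Tead3 averaged 6.46 in iB1 and 6.74 in iEGS. Since iB1 is replicate 3 alone, the line and the replicate cannot be told apart, and these counts treat its 4 arrays, 1 from each group, as independent. The induction effect was called as different between the lines for none of the 9 genes and none of the others (0 and 519 at an unadjusted p under 0.05).

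Among all genes, those whose signals followed the angiomotins most closely over the 12 arrays of the replicated groups were ranked by Pearson correlation, as a description of arrays that share groups and replicate shifts. Closest to Amot were Tgfb1 (r = 0.952), Tead4 (r = 0.946) and Plpp3 (r = 0.942). Tgfb1, which encodes a growth factor of vessels and mesenchyme, differed between induced and control cells by 1.49 ± 0.214 at 12 h and 0.20 ± 0.214 at 24 h. For Plpp3, which encodes a lipid phosphate phosphatase, these differences were 0.66 ± 0.151 and -0.13 ± 0.151. Both genes were chosen for their likeness to Amot on these arrays, so their differences are a description with no test. Closest to Amotl1 were Racgap1 (r = 0.938), Dip2b (r = 0.922) and Hectd4 (r = 0.921), and closest to Amotl2 were Slc22a23 (r = 0.889), Ttpal (r = 0.867) and Olfr112 (r = 0.860).

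The rest of the pathway was read from lists of its kinases, regulators, partners, cofactors and target genes. Of the kinase core, 7 of 8 genes were measured and 0 were called higher or lower in the limma fit at 12 h or at 24 h, with 0 of the 7 at an unadjusted p under 0.05 at either time. Sav1, the scaffold of the cascade, differed by 0.03 ± 0.133 at 12 h and 0.00 ± 0.133 at 24 h, and Mob1b, a LATS coactivator, by 0.04 ± 0.181 and 0.33 ± 0.181. Of the upstream regulators and junction scaffolds, 18 of 19 were measured, 0 were called at 12 h (4 at an unadjusted p under 0.05), and 2 were called higher and 0 lower at 24 h (11.1% of the list, against 2.03% of all genes called higher). These were Taok3, a kinase upstream of the cascade (0.83 ± 0.184, adjusted p = 0.0142), and Tjp1, which encodes the tight junction protein ZO-1 (0.65 ± 0.176, adjusted p = 0.0429). The list's median difference at 24 h was -0.14, against 0.00 for all genes. At an unadjusted limma p under 0.05 the list had 5 genes at 24 h. Beside Taok3 and Tjp1 these were Dchs1, Ptpn14 and Ptpn21, each with a lower mean in induced cells. The share of all genes at an unadjusted p under 0.05 is not given here for 12 h or 24 h. The call of Tjp1 held in 2 of 15 ways of leaving out arrays and that of Taok3 in 12 of 15.

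Of 14 genes for angiomotin partners and turnover, 0 were called at 12 h (0 at an unadjusted limma p under 0.05). At 24 h, with 2 at an unadjusted p under 0.05, 0 were called higher and 1 lower (7.14%, against 3.43% of all genes called lower). The 1 gene was Mpp5, which encodes the polarity scaffold PALS1 (-0.70 ± 0.187, adjusted p = 0.0412), and its call held in 4 of 15 ways of leaving out arrays. Nedd4, a ubiquitin ligase that acts on angiomotins, differed by 0.00 ± 0.138 at 12 h and -0.07 ± 0.138 at 24 h, and Tnks2, a tankyrase, by 0.27 ± 0.195 and -0.11 ± 0.195. The list's median was 0.01 at 12 h and -0.21 at 24 h.

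Of the 4 Vestigial-like cofactors, which bind TEAD factors, 1 was called higher at 12 h (25% of the list, against 0.813% of all genes called higher) and 2 at 24 h (50%, against 2.03%), and 0 were called lower. Vgll4, which competes with YAP1 for TEAD, had 7.23, 7.29 and 7.58 in induced 12 h, against 6.61, 6.13 and 6.44 in control day 2.5. At 24 h it had 8.08, 7.90 and 7.85 in induced cells, against 7.40, 7.28 and 7.44 in control day 3. Every induced array lay above every control array of its day, with differences of 0.97 ± 0.154 (limma adjusted p = 0.00302) and 0.57 ± 0.154 (adjusted p = 0.0437). The 12 h call was lost without replicate 2 (adjusted p = 0.200) or replicate 3 (0.155) in all groups, and the 24 h call held in 3 of 15 ways of leaving out arrays. As with Amot, the controls rose between day 2.5 and day 3, by 0.98 ± 0.154 (adjusted p = 0.00629). The 6 h pair had 7.15 in the induced and 6.30 in the control array. Vgll3 was called higher at 24 h (0.84 ± 0.220, adjusted p = 0.0381), with 5.33, 6.18 and 6.42 in induced cells, against 5.04, 5.19 and 5.19 in controls, and its call held in 4 of 15 ways of leaving out arrays.

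Of 22 genes on a list of YAP and TAZ targets, 0 were called higher and 1 lower at 12 h (4.55%, against 0.577% of all genes called lower), and 0 higher and 4 lower at 24 h (18.2%, against 3.43% of all genes). The list's median difference was -0.08 at 12 h and -0.20 at 24 h, against -0.01 and 0.00 for all genes. Igfbp3, which encodes a carrier of insulin-like growth factors, had 6.89, 6.86 and 7.12 in induced 12 h, against 9.84, 8.93 and 9.35 in control day 2.5. At 24 h it had 6.23, 6.85 and 6.58 in induced cells, against 10.35, 10.10 and 9.83 in control day 3. It was lower by 2.42 ± 0.224 at 12 h (a log2 difference of -2.42, limma adjusted p = 3.23e-05) and by 3.54 ± 0.224 at 24 h (a log2 difference of -3.54, adjusted p = 2.78e-07), and both calls held in all 15 ways of leaving out arrays. The change of its effect between the times, -1.12 ± 0.316, did not pass the test (adjusted p = 0.256). In the single pair at 6 h Igfbp3 had 7.44 in the induced and 9.48 in the control array.

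Nt5e, which encodes the surface enzyme CD73, had 5.21, 5.06 and 5.15 in induced 24 h, against 7.29, 7.21 and 7.00 in control day 3 (-2.03 ± 0.261, adjusted p = 0.000178). At 12 h its difference was -0.96 ± 0.261, called with the replicate block (adjusted p = 0.0155) and not without it (0.123). Tgfb2, a growth factor gene, was lower at 24 h (-0.90 ± 0.188, adjusted p = 0.00935), as was Fjx1, which encodes a Golgi protein related to the fly kinase Four-jointed (-0.68 ± 0.179, adjusted p = 0.0381). These calls held in 11 and 5 of 15 ways of leaving out arrays. With the replicate block the list had 1 called higher and 5 called lower at 24 h, the added genes being Crim1 (0.54, adjusted p = 0.0368) and F3 (-0.60, adjusted p = 0.0352), where 7.85% of all genes were called in either direction, and 2 called lower at 12 h (Igfbp3 and Nt5e), where 2.21% were. Genes often read as YAP and TAZ reporters were not called: Ccn2 (CTGF) differed by -0.13 ± 0.224 at 12 h and -0.32 ± 0.224 at 24 h, Ccn1 (CYR61) by -0.54 ± 0.158 (adjusted p = 0.171) and -0.43 ± 0.158 (adjusted p = 0.177), and Ankrd1 by 0.22 ± 0.140 and 0.29 ± 0.140. Every induced Ccn1 array lay below every control array at 12 h and at 24 h, where 14.5% and 18.5% of all genes did not overlap in either direction. In the 6 h pair Ccn1 had 8.53 in the induced and 8.96 in the control array. Ankrd1 had low signals, with means of 3.89 in control day 2.5 and 4.61 in induced 24 h. Without induced 24 h replicate 3, which stood apart, the 24 h calls of Igfbp3 (-3.56), Nt5e (-2.03), Tgfb2 (-0.999), Taok3 (1.04) and Tjp1 (0.86) held, and those of Mpp5 (adjusted p = 0.146), Vgll3 (0.142), Vgll4 (0.0542) and Fjx1 (0.120) were lost. Crim1, F3, Ccn2, Ccn1 and Ankrd1 were chosen after their values were seen.

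**Figure D4:**
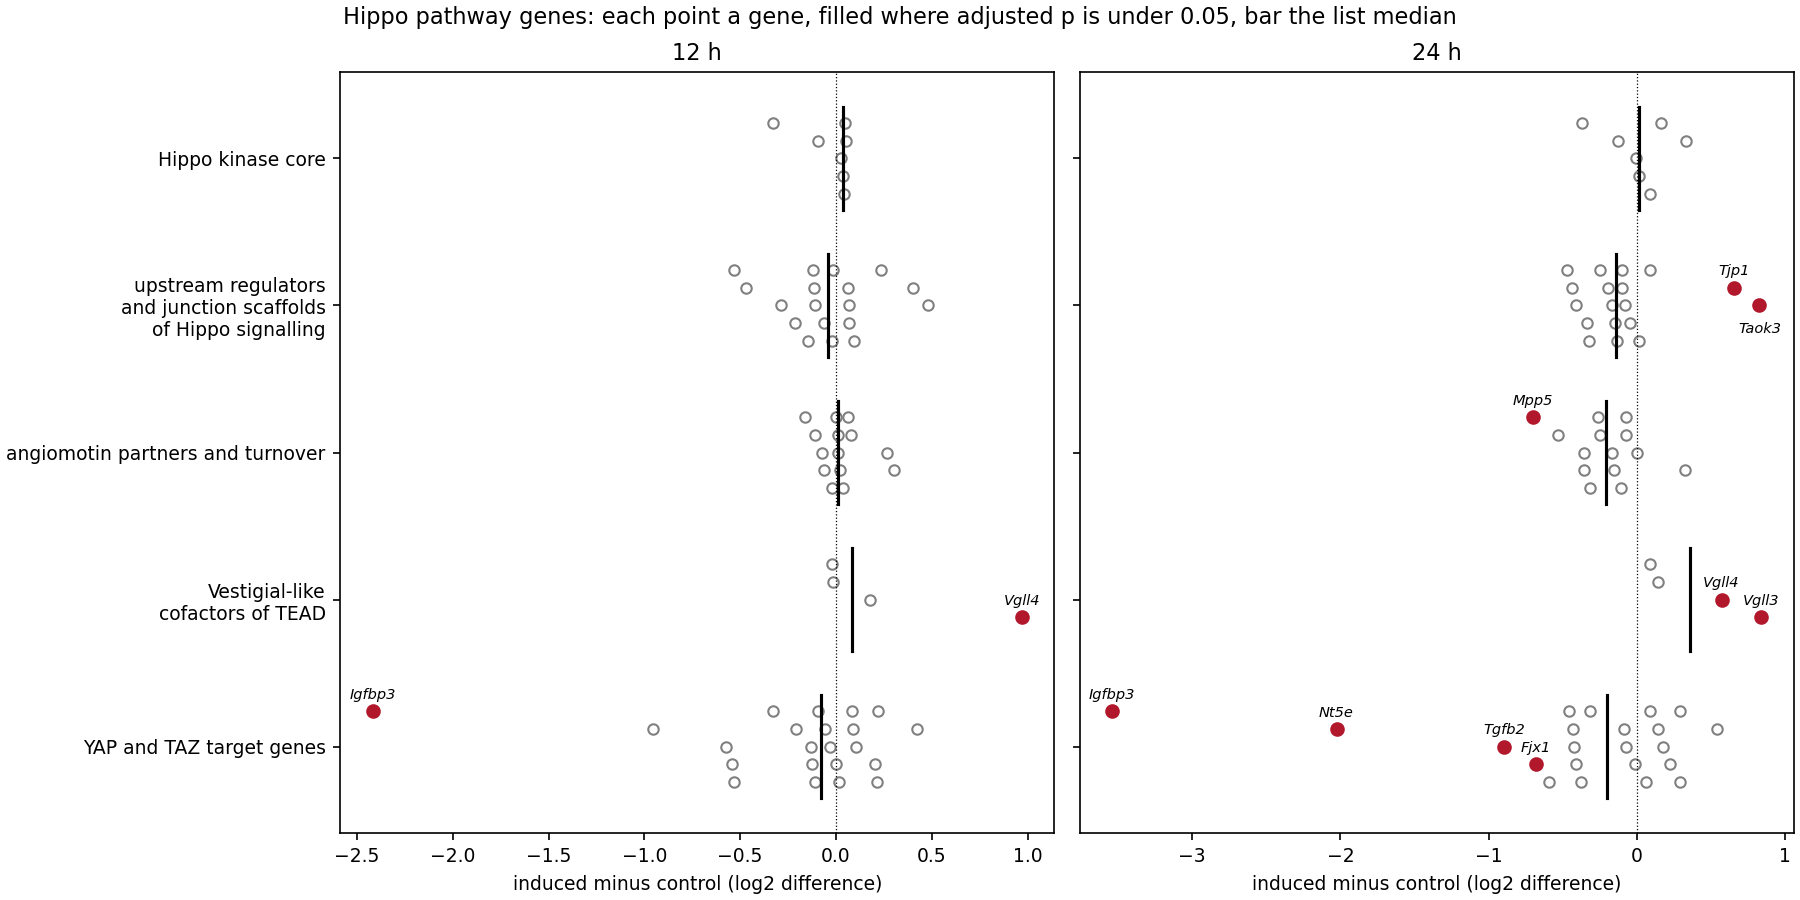
Log2 difference of induced minus control cells (x axis) for each gene of 5 Hippo pathway lists (y axis) at 12 h and 24 h. Each point is a gene, filled red and named where its limma adjusted p is under 0.05, and the vertical bar is the list median; the x axes differ between the panels. Igfbp3 lies furthest from 0 at both times (-2.42 and -3.54), and the kinase core has 0 called genes.

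Markers of the cell types that the cultures could hold were read on the same arrays. Beside the counts below, 0.813% of all genes were called higher and 0.577% lower at 12 h. At 24 h these shares were 2.03% and 3.43%. The mean signal of 8 endothelial markers was 5.44 to 5.87 in induced 12 h, against 4.61 to 4.97 in control day 2.5, and 6.35 to 7.09 in induced 24 h, against 4.94 to 5.11 in control day 3, with 4 of the 8 called higher and 0 lower at each time. These markers did not all move alike. Tie1 means were 4.58 and 4.61 at 12 h and 5.70 and 4.59 at 24 h, induced and control in that order. Those of Kdr were 7.02 and 5.06 at 12 h and 7.71 and 7.09 at 24 h. The mean of 5 measured primitive streak and mesoderm markers was 6.11 to 6.33 in induced 12 h, against 6.90 to 7.47 in control day 2.5 (3 called lower), and 5.60 to 5.85 in induced 24 h, against 8.65 to 8.84 in control day 3 (5 called lower). Pluripotency markers averaged 7.82 to 8.37 in induced 12 h, against 8.20 to 9.0 in control day 2.5 (1 of 5 called lower), and 6.70 to 7.60 in induced 24 h, against 7.81 to 8.43 in control day 3 (3 called lower). Markers of the fibroblast feeder cells, on which the ES cells were kept before differentiation, averaged 5.17 to 5.36 in induced 12 h, against 4.82 to 5.36 in control day 2.5, and 5.01 to 5.36 in induced 24 h, against 4.90 to 5.19 in control day 3, with 1 of 8 (Thy1) called higher at 24 h. Trophoblast markers averaged 5.09 to 5.14 in induced 12 h, against 5.17 to 5.30 in control day 2.5 (0 of 6 called), and 5.24 to 5.48 in induced 24 h, against 5.77 to 5.91 in control day 3, with 1 of 6 (Krt7) called lower. Within that list Gata3 lay the other way at 24 h (0.54 ± 0.199, adjusted p = 0.174). Visceral endoderm markers averaged 4.42 to 4.70 in induced 12 h, against 4.36 to 4.79 in control day 2.5, and 4.41 to 4.95 in induced 24 h, against 4.38 to 4.73 in control day 3, with 0 of 6 called at either time. How far these cell types entered the results on Amot, Tead2, Tead4 and the target genes was not tested.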

How the data were processed

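Embryoid bodies were profiled on 14 arrays. The authors deposited log2 RMA values of 35556 probe sets (Affymetrix Expression Console is named in the submitters' processing notes). Software versions are not stated in the sources used here, nor is which arrays shared a normalization. The RMA step removes changes that most genes share and compresses low signals. The labels' protocols record amplification of the cDNA. In the platform annotation 21789 probe sets had 1 symbol, 1621 had several and 12146 had none listed. For the 999 genes with several probe sets the one of highest mean was used, and 19938 genes remained.

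One limma model (version 3.58.1, R 4.3.3; lmFit and eBayes on group means, with 8 residual and 6.05 prior degrees of freedom) held the 12 arrays of the 4 replicated groups. A call is a Benjamini-Hochberg adjusted p under 0.05 over all genes, and errors of differences are limma standard errors. The script was tested on simulated data. The series names independent experiments, and nothing else says whether arrays came from separate cultures. The limma model took no pairing of arrays into account. The same-numbered pairs and the replicate block did use the replicate numbers. Arrays of 1 number deviated together within a day, with correlations of 0.573, 0.344 and 0.262 at day 2.5 and of 0.517, 0.157 and 0.261 at day 3. Correlations with another number reached 0.167 at day 2.5, below every own-number value of that day. At day 3 they reached 0.375, above the own-number values of replicates 2 and 3. The replicate block also joins arrays of a number across days, for which no correlation is given here. The alternatives were a replicate block, a line covariate, repeated quantile normalization, median-centred arrays, no dim genes (under the 40th percentile), means of probe sets, array weights (which stopped before convergence), an intensity trend, the compared groups only, and 15 ways of leaving out arrays.

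Members and lists were chosen with earlier results of these data known. The named genes are the 9 members, the list genes called at 12 h or 24 h (up to 6 a list, and, where fewer than 2 were called, the 2 of highest signal) and the 3 genes most like each angiomotin; Crim1, F3, Ccn2, Ccn1, Ankrd1 and the single markers named stand outside this rule. Array signals carry no counts, so the number of arrays limits the precision.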

Additional observations from a re-analysis of the deposited data

How the results depend on the processing

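The 24 alternatives left most results on the members unchanged in direction and in call (970 of 1071 values). Most of these results were not calls to begin with, so this share says little of how firm the calls were. The Amot call at 12 h held in 19 of 24 alternatives, and the Tead2 call at 24 h in 23. The Amot call between the control days held in 15, and the Tead2 call from induced 12 h to induced 24 h in 6. The replicate block joins arrays of a number within a day and across days, and the pairing across days was not checked. With this block 2 members were called at 12 h (Amot and Tead4, against 2.21% of all genes). For the change of the effect 1 was called (Amot, where the fit without the block had 0, against 0.818% of all genes). Between the control days 2 were called (against 1.73%). The 12 h count was also 2 with the line as a covariate, with another quantile normalization, without dim genes and with array weights. This count and those that follow have no share of all genes beside them, so they cannot be set against one. With array weights the upstream regulators had 2 called higher and 3 lower at 12 h, against 0 and 0 in the fit without weights. The YAP and TAZ targets had 1 and 5, against 0 and 1. The count between control days was 2 with array weights and 0 with median-centred arrays. The count from induced 12 h to induced 24 h was 0 with the line as a covariate, another quantile normalization, array weights and the compared groups only. Leaving out arrays gave 0 to 2 members at 12 h, 0 to 1 at 24 h, 0 to 1 between control days, 0 to 1 from induced 12 h to 24 h, and 0 to 1 between lines (Amot without replicate 2, with 1 array a line in each group). The replicate block changed no other call on the members. The cause of these moves was not tested. Values near 0 turned sign in some alternatives. With array weights, Yap1 at 12 h was -0.020, and Amotl1 was 0.063 for the change of the effect and 0.031 from induced 12 h to 24 h. With median-centred arrays, Amotl1 at 24 h was -0.026 and Tead4 from induced 12 h to 24 h was -0.017. With another quantile normalization, Wwtr1 from induced 12 h to 24 h was 0.023. Leaving out arrays moved Amotl1 at 12 h from -0.10 to 0.23. At 24 h it moved Amot from -0.079 to 0.35, Amotl1 from -0.26 to 0.26, Amotl2 from -0.042 to 0.19, Tead1 from -0.0018 to 0.65 and Tead3 from -0.37 to 0.0067. The change of the effect ran from -0.33 to 0.19 for Amotl1, from -0.18 to 0.033 for Wwtr1 and from -0.26 to 0.38 for Tead1. Between control days the range was -0.24 to 0.12 for Amotl1, -0.079 to 0.14 for Wwtr1 and -0.055 to 0.32 for Tead1. From induced 12 h to 24 h it was -0.081 to 0.31 for Amot, -0.36 to 0.16 for Amotl1, -0.12 to 0.053 for Wwtr1, -0.14 to 0.47 for Tead1 and -0.073 to 0.23 for Tead4.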
